A study of Mus musculus with 2 samples.

Results

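The 10 genes described here encode the neurofilament subunits and the proteins of growing and mature axons that are often used to recognise retinal ganglion cells, the output neurons of the retina whose axons form the optic nerve. They were taken by gene symbol (Nefl, Nefm, Nefh, Ina, Gap43, Thy1, Sncg, Stmn2, Stmn3 and Uchl1) from the 32285 features of 2 single-cell libraries, and all 10 were found. The series title concerns whether Müller cells, the radial glia of the retina, turn into ganglion cells in vivo. Both libraries came from retinas of B6.Cg mice with the allele Gt(ROSA)26Sortm9(CAG-tdTomato)Hze, which make the red protein tdTomato only in cells exposed to Cre recombinase. The mice were 14 weeks old and had received an adeno-associated virus (AAV) 8 weeks earlier, and tdTomato-positive cells were sorted. The labels name the libraries Muller and MullerControl, and the first is treated here as the test group on the strength of the name of the second. About 4.9% of cells were positive in the test group and about 10% in the control group, 60000 and 120000 cells were collected, and 27000 were loaded in each case. The labels do not say what either virus carried, which promoter drove it or how many mice were used. Each group had 1 library, so no test between groups was possible, and every interval below is a 95% interval for counting error alone.

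Neurofilaments are the intermediate filaments of neurons: Nefl, Nefm and Nefh encode the light, medium and heavy subunits and Ina encodes alpha-internexin, which co-assembles with them, and together they set the calibre of axons. Gap43 is a membrane protein of growth cones, Stmn2 and Stmn3 are neuronal stathmins that bind tubulin, Thy1 is a surface glycoprotein, Sncg is gamma-synuclein, and Uchl1 is an abundant neuronal ubiquitin hydrolase. In the retina these genes are best known from ganglion cells, but several are also made by interneurons, namely the amacrine cells (inhibitory cells of the inner retina), the horizontal cells (inhibitory cells of the outer retina) and the bipolar cells, which relay photoreceptor signals.

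The Muller library held 12316 barcodes and 25622379 unique molecular identifiers (UMIs, each counted as 1 transcript molecule), and the MullerControl library 11309 barcodes and 23549118 UMIs. After filtering, 10757 and 9538 cells remained, with medians of 1502 and 1589 UMIs, and 40 barcodes occurred in both libraries. Cells were placed in classes by the share of their UMIs from marker lists that hold none of the 10 genes, and the name "-like" marks a class made in this way. Cells that passed no gate (1120 and 435) or more than 1 (407 and 103) stayed unnamed. Amacrine-like cells numbered 761 (7.07% of kept cells, 6.60 to 7.58) in the Muller library and 204 (2.14%, 1.86 to 2.45) in the MullerControl library, and bipolar-like cells 3023 and 924. Rod-like cells numbered 3969 and 6346, cone-like cells 291 and 739, Müller-like cells 1070 and 631, and horizontal-like cells 15 and 2. Amacrine-like cells carried their own markers at medians of 30.4 and 29.4 per 10000 UMIs, and rod-like cells at medians of 0 in both libraries. Ganglion cell markers outside the 10 genes were scarce, apart from Chrna6. It had 399 and 123 UMIs, of which 262 and 84 were in bipolar-like and 43 and 7 in amacrine-like cells. Pou4f2, a transcription factor that defines ganglion cells, had 0 UMIs in both libraries, and Pou4f1 had 0 and 3. Rbpms had 101 and 113 UMIs, of which 54 and 54 were in Müller-like cells and 2 and 1 in amacrine-like cells. Rbpms2 had 31 and 38 UMIs, Slc17a6 11 and 15, Isl2 7 and 33, and Nrn1 21 and 33. Of these, cone-like cells held 6 and 14 Slc17a6, 4 and 25 Isl2, and 11 and 26 Nrn1 UMIs.

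Every member was detected in both libraries. Over all barcodes, with the Muller library first, Nefl had 488 and 136 UMIs, Nefm 217 and 37, Ina 2770 and 988, and Nefh 295 and 331. Among the other members Gap43 had 289 and 117 UMIs, Thy1 760 and 401, Sncg 67 and 17, Stmn2 625 and 91, Stmn3 6173 and 2613, and Uchl1 1487 and 395. Nefh had a lower level in the Muller library (11.5 against 14.1 counts per 1000000 UMIs, CPM), and the other members had a higher one. The share of all genes with a higher level there was not calculated. Part of the excess of these members went with the class makeup, as the Muller library had larger shares of amacrine-like, bipolar-like and horizontal-like cells. When each class of the Muller library was given the level it had in the MullerControl library, 381 Nefl UMIs were calculated and 456 were observed in kept cells, a ratio of 1.20 where the plain ratio of the levels was 3.49. The same ratio of observed to calculated UMIs was 1.08 for Ina (plain ratio 2.55), 1.12 for Stmn3 (2.14), 1.02 for Nefh (0.801) and 0.846 for Thy1 (1.78). It stayed further above 1 for Stmn2 (2.30, plain ratio 7.30), Sncg (1.80 and 7.22, from 64 and 8 UMIs), Nefm (1.61 and 5.82), Gap43 (1.53 and 2.53) and Uchl1 (1.43 and 3.55). All these ratios include the horizontal-like class, whose MullerControl level came from 2 cells with 5717 UMIs. That level was applied to the 141219 UMIs of the class in the Muller library, so each of its few UMIs weighed heavily. For Sncg, 1 of the 8 UMIs was in these 2 cells. Ratios without this class were not calculated.

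**Figure D1:**
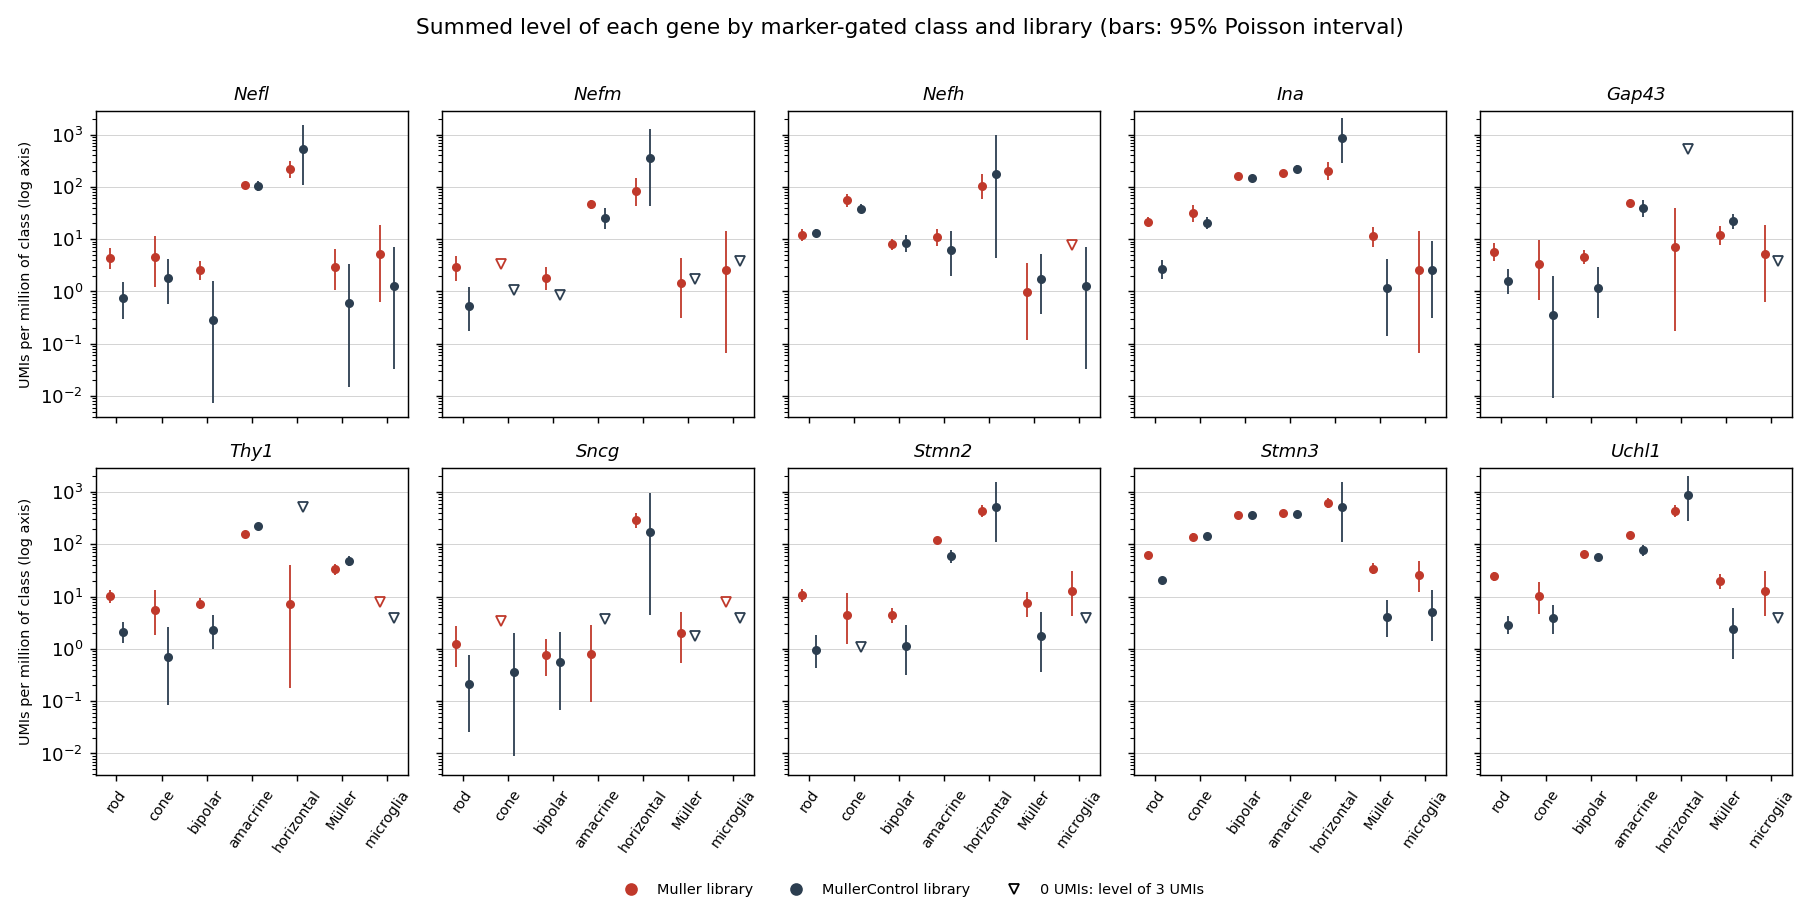
Each panel shows 1 gene. The vertical axis is the summed level in CPM (log axis), the points are the Muller (red) and MullerControl (dark) libraries, the bars are 95% Poisson intervals, and an open triangle marks 0 UMIs at the level that 3 UMIs would give. Nefl, Nefm, Gap43, Thy1 and Stmn2 are highest in amacrine-like or horizontal-like cells, Nefh is also high in cone-like cells, and Ina and Stmn3 are high in both bipolar-like and amacrine-like cells.

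Nefl was concentrated in amacrine-like cells. It lay at 107 CPM in the Muller library (94.6 to 120.3, from 274 UMIs in 118 cells) and at 104 in the MullerControl library (83.1 to 129, from 85 UMIs in 45 cells). These cells held 60.1% and 72.0% of the Nefl UMIs of kept cells. In the 15 horizontal-like cells of the Muller library the level was higher still, at 219.5 CPM (149 to 312). In rod-, cone-, bipolar-, Müller- and microglia-like cells it lay between 2.59 and 5.18 CPM in the Muller library, with intervals that all overlapped, and between 0.285 and 1.78 in the MullerControl library. In rod-like cells no cell had more than 1 Nefl UMI, whereas the highest amacrine-like cell had 9. Cells that passed no gate had 58.6 CPM in the Muller library (80 UMIs in 44 cells, 17.5% of the Nefl UMIs of kept cells). In the MullerControl library they had 22.2 (15 UMIs in 12 cells, 12.7%). The highest such cell of the Muller library held 15 Nefl UMIs, above any amacrine-like cell, and the type of these cells was not assigned. With each cell thinned to 1000 UMIs, Nefl was seen in 5.75% of amacrine-like cells of the Muller library (4.17 to 7.69) and in 10.9% of the MullerControl library (6.99 to 16.1), against 0.338% and 0.0912% of rod-like cells. Without thinning the shares in amacrine-like cells were 15.5% and 22.1%, at median depths of 2769 and 3590.5 UMIs. Since the summed levels differed by a log2 ratio of only 0.03 (-0.32 to 0.38), no order of the libraries is read from these shares.

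Nefm followed Nefl at a lower level, with 46.4 CPM in amacrine-like cells of the Muller library (38.5 to 55.6) and 25.7 in those of MullerControl (15.9 to 39.3). In horizontal-like cells of the Muller library it lay at 85.0 (43.9 to 148), and in rod-, cone-, bipolar-, Müller- and microglia-like cells of both libraries at 2.90 or less. No Nefm UMI was found in cone-like cells of either library. Nefl and Nefm lie on opposite strands of chromosome 14 and their annotated exons overlap (Nefl at 68083863 to 68089095, Nefm at 68082590 to 68124846, GRCm38). Whether the counting used strand is not given in the sources used here, so reads from the overlap cannot be assigned to 1 of the genes with certainty.

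Nefh had a pattern of its own. Among classes with at least 50 cells it was highest in cone-like cells, the photoreceptors of daylight vision, at 56.0 CPM in the Muller library (41.6 to 73.8) and 38.4 in those of MullerControl (31.5 to 46.4). Rod-like cells followed at 12.2 and 13.3, amacrine-like cells at 10.9 and 6.12, and bipolar-like cells at 8.00 and 8.56, all with overlapping intervals in the Muller library. Müller-like cells had 0.988 and 1.77. Only 11.0% of the Nefh UMIs of the Muller library and 1.75% of those of the MullerControl library were in amacrine-like cells. Within bipolar-like cells the level depended on the type. Cells with Grik1 but without Trpm1, Grm6 and Prkca, the pattern of OFF bipolar cells, had 27.9 (14.8 to 47.7) and 22.7 (8.32 to 49.4). Cells with Prkca, the marker of rod bipolar cells, had 1.88 (0.689 to 4.09) and 4.60 (1.49 to 10.7). These types are set apart in the same direction in both libraries, with intervals that do not overlap in the Muller library only. In cone-like cells with mostly the short-wave opsin Opn1sw the levels were 59.4 and 31.2, and in those with mostly Opn1mw 49.3 and 46.5.

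Ina was the neurofilament gene of bipolar-like cells. Its level there was 163 CPM in the Muller library (155 to 172) and 148 in that of MullerControl (136 to 161), and these cells held 62.5% and 60.6% of its UMIs. Amacrine-like cells were somewhat higher, at 187 (171 to 204) and 223 (192 to 258). Cells with Prkca had 212 (196 to 229) and 209.6 (183 to 239), above the cells with Trpm1 or Grm6 but no Prkca, with 138 (129 to 148) and 123 (108 to 139). Cone-like cells had 31.4 and 20.3, rod-like cells 21.7 and 2.66, and Müller-like cells 11.4 and 1.18. After thinning, Ina was seen in 12.3% and 11.7% of bipolar-like cells and in 1.74% and 0.251% of rod-like cells. Exons of Ina overlap those of Nt5c2 on the opposite strand.

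The most abundant members, Stmn3 and Ina, shared the bipolar-like and amacrine-like classes, and the sequences before their start sites are shown to compare them. Both are the 250 bases before the RefSeq start (GRCm38.p6), 5′ to 3′ on the gene's strand, with each CG pair in capitals. Ina is on the plus strand at chr19:47014431-47014680 and Stmn3 on the minus strand at chr2:181314501-181314750.
Ina: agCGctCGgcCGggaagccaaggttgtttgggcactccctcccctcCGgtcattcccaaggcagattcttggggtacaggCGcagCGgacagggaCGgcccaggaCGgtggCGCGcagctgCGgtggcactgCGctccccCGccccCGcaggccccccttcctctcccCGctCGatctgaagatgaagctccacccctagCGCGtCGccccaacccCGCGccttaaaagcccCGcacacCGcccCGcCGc
Stmn3: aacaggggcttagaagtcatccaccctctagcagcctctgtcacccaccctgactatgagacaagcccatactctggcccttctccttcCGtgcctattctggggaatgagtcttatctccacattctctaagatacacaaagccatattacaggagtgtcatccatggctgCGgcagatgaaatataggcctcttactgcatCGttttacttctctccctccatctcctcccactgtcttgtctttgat
The Ina window holds 25 CG pairs and 70.8% G and C, and the Stmn3 window 3 CG pairs and 48.8%. Over 32851 windows of that length the medians are 6 CG pairs and 52.4%, and 10.7% of the windows hold as many CG pairs as Ina or more. The 2 windows thus differ in base composition although the genes share their classes. Neither holds TATAAA on either strand, which 12.4% of all windows do. RefSeq windows were found for 4 of the 10 members.

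Gap43 and Thy1, the membrane proteins, differed from Nefl, Nefm and Nefh in that Müller-like cells of both libraries also carried them. Ina, at 11.4 and 1.18 CPM in Müller-like cells, was near Gap43 in the Muller library only. Gap43 lay at 48.8 CPM in amacrine-like cells of the Muller library (40.6 to 58.1) and at 39.2 in the MullerControl library (26.8 to 55.3). In Müller-like cells it had 11.9 (7.60 to 17.6) and 22.4 (15.8 to 30.7), the latter from 38 UMIs in 36 cells, or 40.4% of the Gap43 UMIs of that library's kept cells. Thy1 had 157 (142 to 173) and 223 (192 to 258) in amacrine-like cells, and 33.1 (25.7 to 42.1) and 48.3 (38.4 to 60.0) in Müller-like cells. Rod-like cells had 10.1 and 2.13 of Thy1 and 5.79 and 1.60 of Gap43. In horizontal-like cells both were nearly missing, with 1 UMI each in the 15 cells of the Muller library and 0 in the 2 of the MullerControl library.

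Among the stathmins, Stmn2 was a gene of amacrine- and horizontal-like cells and Stmn3 was shared with bipolar-like cells. Stmn2 lay at 119.8 CPM in amacrine-like cells of the Muller library (107 to 134) and at 60.0 in the MullerControl library (44.4 to 79.3), and at 432 in horizontal-like cells of the Muller library (330.4 to 555). In bipolar-like cells it had 4.43 and 1.14. Stmn3 had 396 (372 to 421) and 384 (343 to 429) in amacrine-like, 368 (356 to 381) and 356 (336 to 376) in bipolar-like, 138 (114 to 164) and 142 (129 to 157) in cone-like, and 62.2 and 20.5 in rod-like cells. Uchl1 stood between these patterns, with 152 (137 to 168) and 77.1 (59.2 to 98.6) in amacrine-like and 65.8 (60.7 to 71.3) and 57.9 (50.2 to 66.5) in bipolar-like cells. The 15 horizontal-like cells of the Muller library held 87 Stmn3 and 62 Uchl1 UMIs in 141219, mostly in the 4 cells described below. For both genes that is a higher level than in amacrine-like cells. Exons of Uchl1 overlap those of its antisense gene Uchl1os.

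Sncg was the rarest member, and in the Muller library most of its UMIs were in horizontal-like cells (64.1% of those in kept cells). In the MullerControl library these held 1 of 8, and rod-like and bipolar-like cells 2 each. Of the 67 UMIs of the Muller library, 41 came from 4 of its 15 horizontal-like cells, with 16, 16, 7 and 2 UMIs each. In the other classes of both libraries its level was at most 1.98 CPM, and the 761 and 204 amacrine-like cells held 2 and 0 UMIs. The same 4 cells held 60 Stmn2, 78 Stmn3, 59 Uchl1, 26 Nefl, 15 Nefh, 13 Ina and 8 Nefm UMIs, but 0 of Gap43 and 0 of Thy1. The other 11 horizontal-like cells of that library held 1 Stmn2, 9 Stmn3, 3 Uchl1, 5 Nefl, 0 Nefh, 16 Ina, 4 Nefm, 1 Gap43 and 1 Thy1 UMIs. These 2 sets of cells also differed in depth and quality: the 4 with Sncg had 8918 to 22870 UMIs and a median of 3.78% mitochondrial UMIs, and the 11 without had 2954 to 14255 UMIs and a median of 12.4%. The part of depth and quality in the difference was not tested.

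The 4 cells with Sncg carried the horizontal cell genes at high counts, from 19 to 147 UMIs of Calb1 (calbindin), 4 to 10 of Lhx1 and 2 to 6 of Onecut1, the transcription factors of that lineage. These 3 genes are among the 6 markers of the horizontal gate, of which a cell needed 4, so the gate partly set their presence. The 4 cells with Sncg had 0 UMIs of Gad1, Gad2 and Slc6a9. Every horizontal-like cell, with or without Sncg, had 0 UMIs of Rbpms and Slc17a6, which mark ganglion cells. Among the 11 without Sncg, the 2 deepest had 0 Onecut1, 3 and 2 Calb1, 5 and 2 Gad1 and 4 and 6 Isl1 UMIs, a mixed set of markers. The third deepest of these, with 8702 UMIs, had 26 Calb1, 6 Lhx1, 3 Onecut1 and 0 Gad1 UMIs, so horizontal cell genes at such counts were not limited to the cells with Sncg. In the MullerControl library 1 of the 2 horizontal-like cells had a Sncg UMI, together with 3 Nefl, 3 Stmn2 and 4 Uchl1 UMIs in 4095. A further horizontal-like cell of that library, removed for its doublet score, held 4 Sncg and 4 Stmn2 UMIs. With 15 and 2 cells the levels of this class were not compared directly between libraries. Its MullerControl levels do enter the calculated UMIs given above for all classes together.

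**Figure D2:**
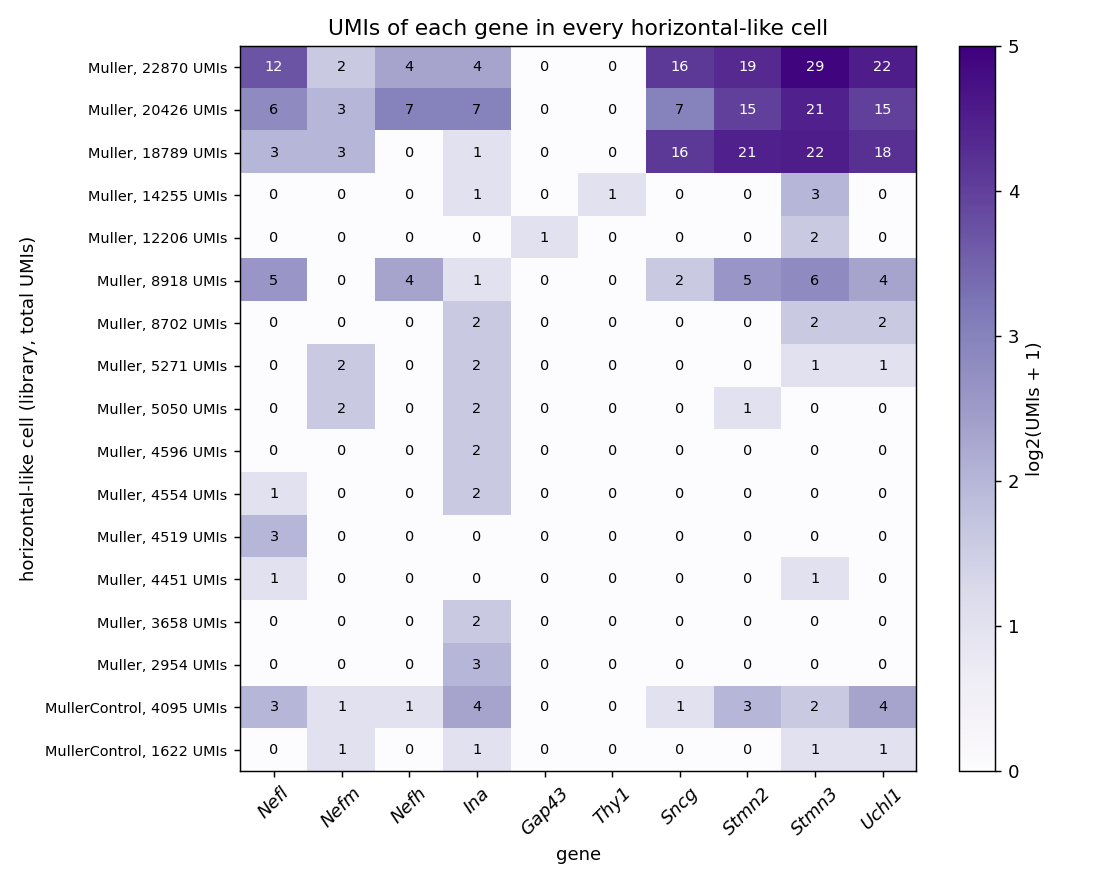
Rows are the 17 horizontal-like cells, named by library and total UMIs, columns are the 10 genes, and the printed number and colour (log2 of UMIs plus 1) give the UMIs of each gene. The 3 deepest cells and the 8918-UMI cell of the Muller library hold 41 Sncg UMIs together with Stmn2, Stmn3 and Uchl1, and the Gap43 and Thy1 columns hold 1 UMI each.

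The 30 bases before the RefSeq start of Sncg are shown because they hold a short motif of the Onecut factors that the horizontal-like cells carry. They lie on the minus strand at chr14:34374671-34374700 (GRCm38.p6), from base -31 to base -2 of the start, with the match in capitals.
Sncg: agcagccacagcATCAATatttcatctgcg
The capitals are the reverse complement of ATTGAT, the core that Onecut factors bind. It was searched on both strands, overlaps no other motif searched, and was chosen after the sequence had been seen. It occurs in 6.72% of the 32851 windows of 250 bases before a start, and in 1 of the 4 such windows found for members. GENCODE places the start of Sncg upstream of this site, so by that annotation the bases lie inside the gene. The match is a description of letters and not of binding.

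**Figure D3:**
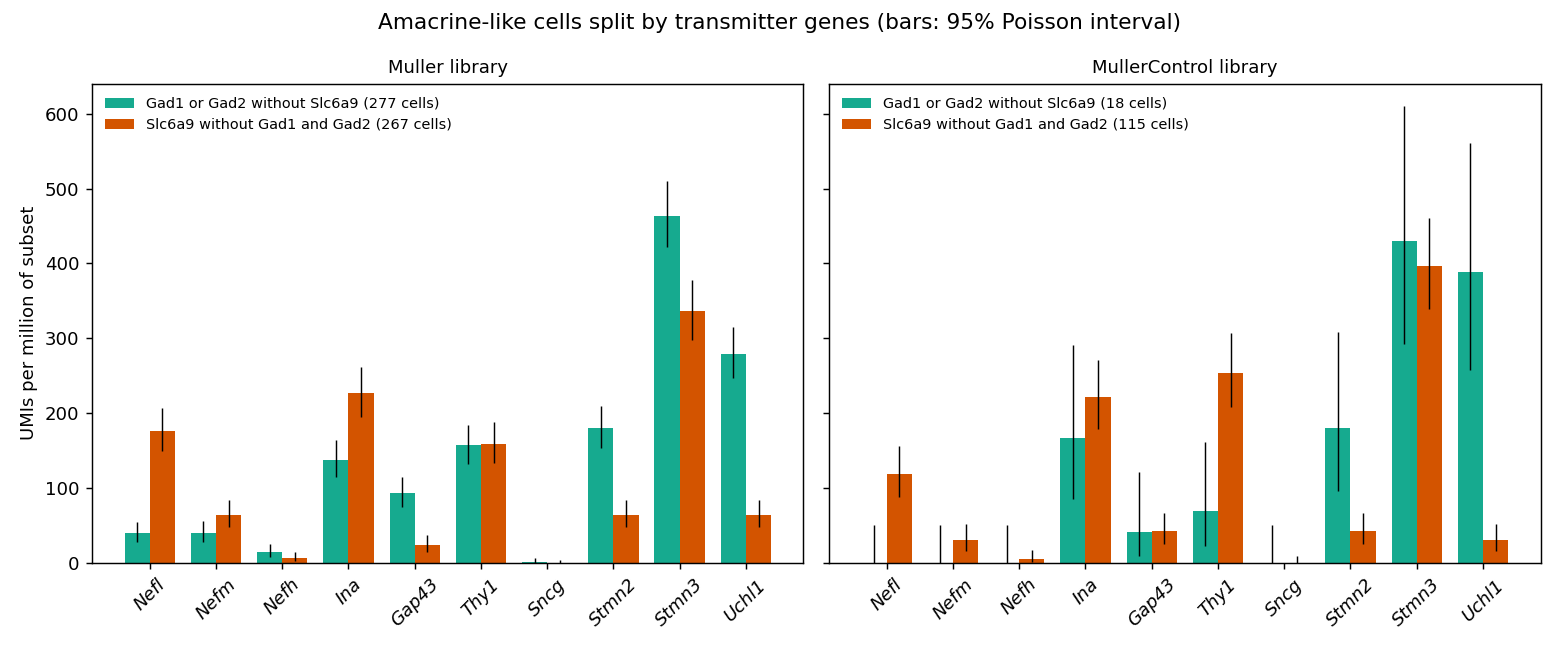
Bars give the level of each gene in CPM of 2 subsets of amacrine-like cells in each library, with 95% Poisson intervals. In the Muller library Nefl stands at 176 in cells with Slc6a9 alone and at 39.2 in cells with Gad1 or Gad2 alone, and Uchl1 the other way round, at 64.4 and 279.7.

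Amacrine cells release either glycine, taken up by the transporter Slc6a9, or GABA, made by the enzymes Gad1 and Gad2. Several members differed between cells with only Slc6a9 and cells with only a Gad gene. In the Muller library Nefl had 176 CPM (149 to 207) in the 267 cells with Slc6a9 but neither Gad gene, and 39.2 (27.6 to 54.0) in the 277 cells with a Gad gene but no Slc6a9. In the MullerControl library it had 119 (88.5 to 156) in 115 cells of the first kind and 0 UMIs in 18 cells of the second. Those 18 cells summed to only 72166 UMIs, so 0 there allows a level of up to 41.6. In the same subsets of the Muller library Ina had 226 (195 to 261) against 138 (115 to 164). Nefm, with 64.4 (48.4 to 84.0) against 40.3 (28.5 to 55.2), had overlapping intervals. In the Muller library Uchl1, Stmn2, Gap43 and Stmn3 were higher in the cells with a Gad gene, and Nefh had overlapping intervals at 14.8 (8.11 to 24.9) against 5.96 (1.94 to 13.9). Stmn3 had 464 (422 to 509.5) against 336 (298 to 378) there, and 429.6 (292 to 609.7) against 396 (339 to 461) in the MullerControl library. Uchl1 had 279.7 (247 to 315) against 64.4 (48.4 to 84.0) in the Muller library and 388 (258 to 561) against 30.3 (16.1 to 51.8) in the MullerControl library. Stmn2 had 180.1 (154 to 209) against 64.4 (48.4 to 84.0), and 180.1 (95.9 to 308) against 42.0 (24.9 to 66.3). Gap43 had 93.2 (74.8 to 115) against 23.8 (14.6 to 36.8) in the Muller library, and 41.6 (8.57 to 121) against 42.0 (24.9 to 66.3) in the MullerControl library, where 3 UMIs gave the first value. Thy1 showed no such division in the Muller library, at 157 and 159, and in the MullerControl library had 69.3 (22.5 to 162) against 254 (209 to 307). Cells with both Slc6a9 and a Gad gene lie outside this split. In the Muller and MullerControl libraries they had 139 and 110 CPM of Nefl, 217.5 and 243 of Ina, and 86.7 and 64.7 of Uchl1. Stmn2 had 115 and 58.3 there, Stmn3 391 and 359, and Gap43 18.9 and 35.6.

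Pairs of members were also counted in single amacrine-like cells. Of the 118 cells with Nefl in the Muller library, 33 also had Nefm (28.0%, 20.1 to 37.0), against 17 of the 643 without Nefl (2.64%, 1.55 to 4.20). In the MullerControl library 6 of 45 (13.3%, 5.05 to 26.8) stood against 7 of 159 (4.40%, 1.79 to 8.86), with overlapping intervals. Thy1 was seen in 65.3% of cells with Nefl and in 20.8% of those without in the Muller library, and in 82.2% and 34.0% in the MullerControl library. Gap43 was seen in 4 of 118 cells with Nefl (3.39%, 0.931 to 8.45) against 64 of 643 without (9.95%, 7.75 to 12.5), with overlapping intervals, and in the MullerControl library in 0 of 45, which allows a share of up to 6.67%, against 16 of 159 (10.1%, 5.86 to 15.8). Cells with Gap43 had Stmn2 (44.1% against 16.2%) and Uchl1 (48.5% against 20.3%) more often than cells without it in the Muller library. These shares were not corrected for depth. After thinning to 1000 UMIs, Nefm was seen in 11 of 42 cells with Nefl (26.2%) and in 14 of 689 without (2.03%), and Gap43 in 0 of 42, which allows up to 7.14%, and in 23 of 689 (3.34%), so that no difference was detectable for Gap43 at this depth. In bipolar-like cells Ina and Stmn3 showed no such relation after thinning, with Stmn3 in 26.5% of cells with Ina and in 25.3% of those without.

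**Figure D4:**
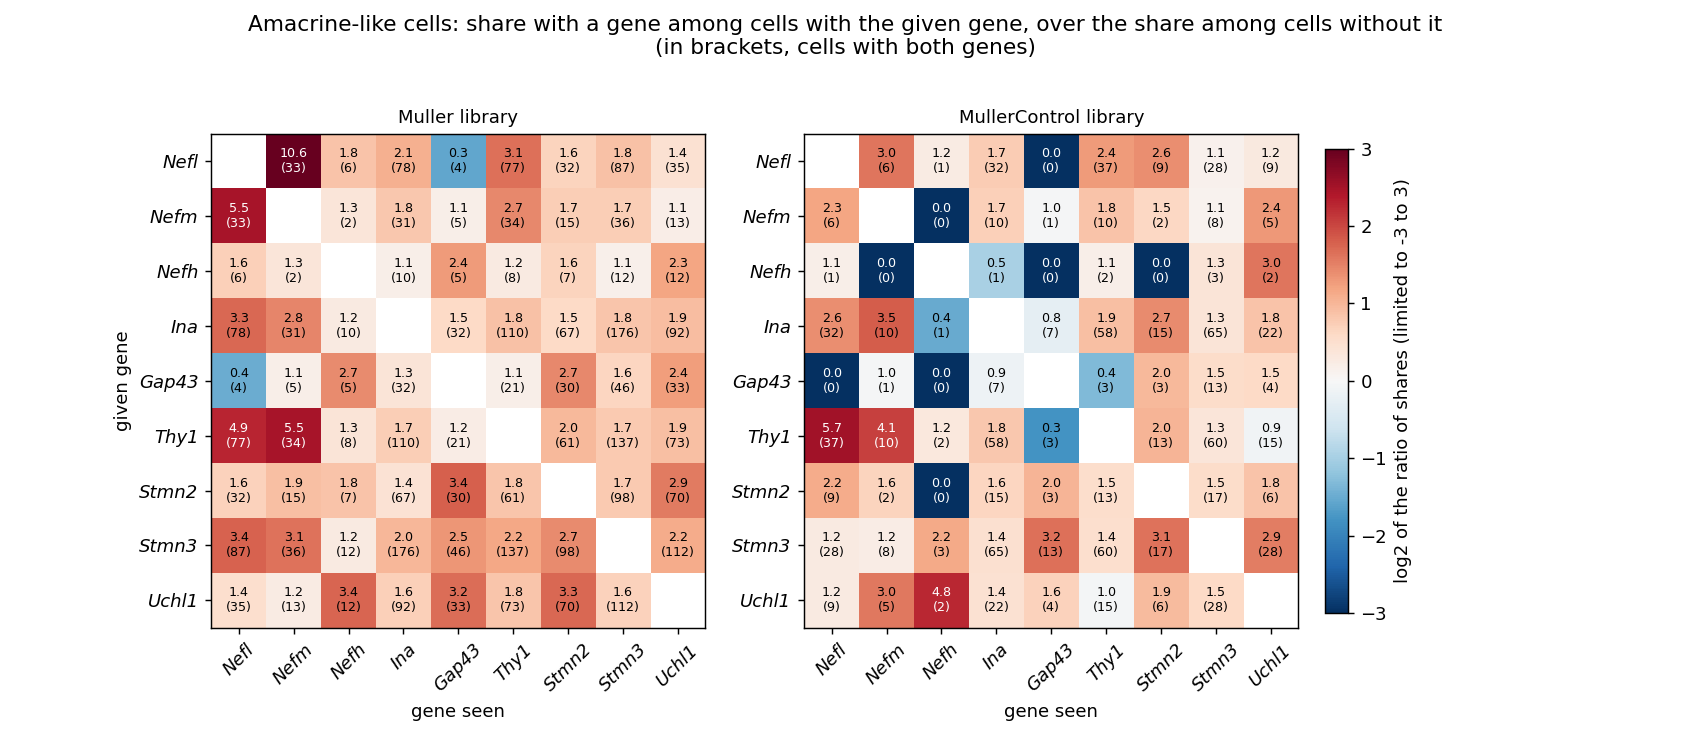
Each square gives the share of amacrine-like cells with the column gene among cells with the row gene, divided by its share among cells without the row gene, and in brackets the cells with both (no thinning; colour is the log2 ratio; Sncg, with 2 UMIs in the class, is left out). In the Muller library Nefl and Nefm stand at 10.6 with 33 cells and Nefl and Gap43 at 0.34 with 4 cells; in the MullerControl library many squares rest on fewer than 10 cells.

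Cells with several members at once were most frequent among amacrine- and horizontal-like cells. After thinning, at least 3 of the 10 members were seen in 42 of 731 amacrine-like cells of the Muller library (5.75%, 4.17 to 7.69) and in 10 of 201 of the MullerControl library (4.98%, 2.41 to 8.96). The same held for 3 of 15 and 2 of 2 horizontal-like cells, 9 of 2795 and 2 of 874 bipolar-like cells, 1 of 274 and 0 of 694 cone-like cells, and for 0 of 2069 and 0 of 4386 rod-like cells, which allow up to 0.145% and 0.0684%. Of Müller-like cells, 0 of 669 and 0 of 437 had 3 members, which allows up to 0.448% and 0.686%. Without thinning, at least 3 members were seen in 219 of 761 and 78 of 204 amacrine-like cells and in 244 of 3023 (8.07%) and 77 of 924 (8.33%) bipolar-like cells. In the same way 0 of 1070 and 0 of 631 Müller-like cells had 3 members, and the highest number seen in any of them was 2. Nefl, Nefm and Nefh were seen together in 4 kept cells of the Muller library, 2 of them amacrine-like and 2 horizontal-like, and in 1 horizontal-like cell of the MullerControl library. All 5 of these cells also had Ina.

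**Figure D5:**
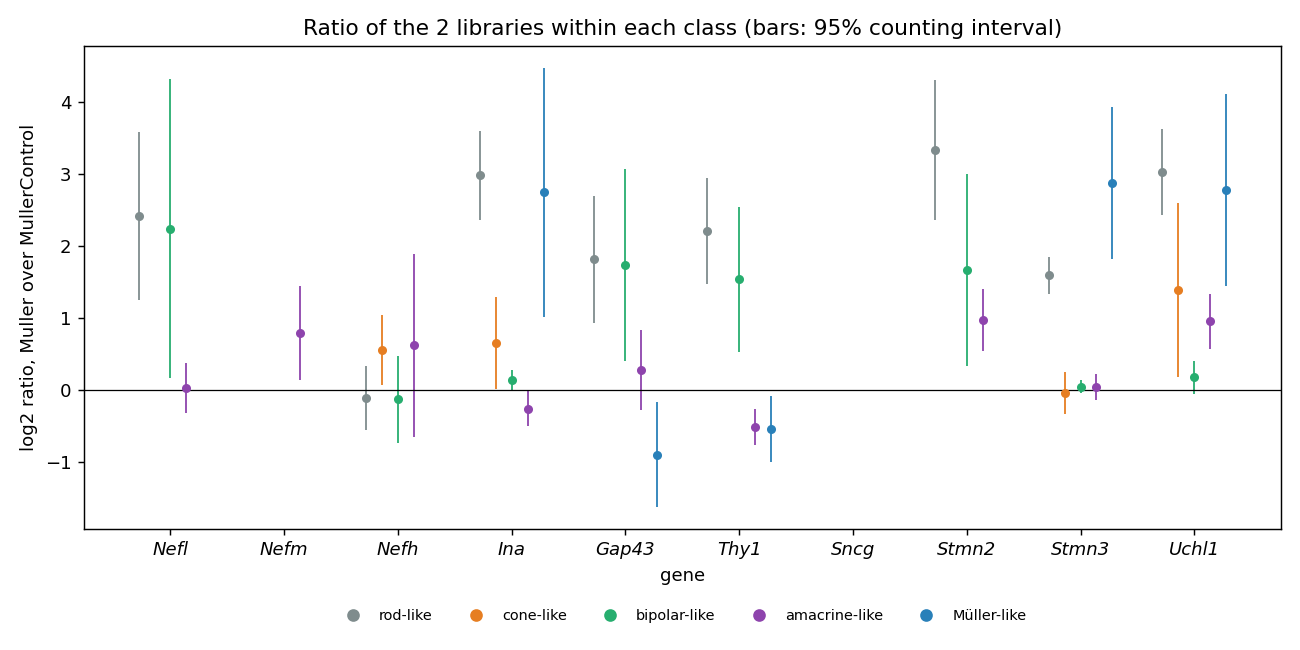
Points give the log2 ratio of the level in the Muller library over that in the MullerControl library within each class, with 1 count added to each sum and bars for the 95% counting interval; a gene and class with fewer than 20 UMIs in both libraries together has no point. Rod-like cells stand between 1.60 and 3.34 for 7 genes and at -0.11 for Nefh, and Stmn3 stands within 0.05 of 0 in cone-, bipolar- and amacrine-like cells.

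Within amacrine-like cells 4 members stood higher in the Muller library and the other 5 tested did not pass 1.5-fold in either direction. Of the 9 members with at least 20 UMIs, 4 were at least 1.5-fold higher in the Muller library and 0 at least 1.5-fold lower, against 7.77% and 12.2% of the 11153 genes tested in that class. The median log2 ratio of the 9 was 0.28, and that of all genes -0.09. The 4 were Stmn2 at 0.97 (0.54 to 1.40), Uchl1 at 0.96 (0.58 to 1.34), Nefm at 0.80 (0.14 to 1.45) and Nefh at 0.62 (-0.64 to 1.89, from 28 and 5 UMIs), which was 0.57, under 1.5-fold, with the stricter gate. Bipolar markers also summed higher in these cells (682 and 409 CPM, log2 ratio 0.74, 13 and 12 of 13 seen, Igfn1 at 0 in the MullerControl library), as did Müller markers (772 and 502, 0.62, 13 and 12 of 13 seen, Car14 at 0 there). Relative to the UMIs of the class, Prkca (355 of 1748 and 171 of 334 bipolar marker UMIs), Slc1a3 (105 and 59 UMIs) and Aqp4 (41 and 14) were lower in the Muller library. Sox9 (25 and 8) was nearly equal, and the other genes of both lists were higher. The part of these markers was not tested. Thy1 was lower at -0.51 (-0.76 to -0.25) and Ina at -0.26 (-0.50 to -0.01), and Nefl (0.03), Stmn3 (0.04) and Gap43 (0.28) had intervals that include 0. The makeup of the class differed between libraries: cells with a Gad gene and no Slc6a9 were 277 of 761 in the Muller library and 18 of 204 in the MullerControl library. Within these cells the ratio was -0.10 (-0.88 to 0.69) for Stmn2, -0.52 (-1.07 to 0.04) for Uchl1 and 0.92 (-0.25 to 2.10, from 148 and 5 UMIs) for Thy1. Within cells with Slc6a9 and no Gad gene it was 0.57 (-0.19 to 1.32) for Stmn2 and 1.01 (0.16 to 1.85) for Uchl1, 0.55 (0.10 to 1.01) for Nefl, 1.01 (0.16 to 1.85) for Nefm and -0.68 (-1.05 to -0.32) for Thy1. Within cells with both it was 0.92 (0.20 to 1.65) for Stmn2, 0.38 (-0.35 to 1.10) for Uchl1 and -0.43 (-0.87 to 0.006) for Thy1. In both libraries 1 cluster of cells held most of the class, with 734 of 761 and 197 of 204 cells.

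In rod-like cells nearly all members tested stood higher in the Muller library, at low levels. Of 8 members tested, 7 were at least 1.5-fold higher in the Muller library and 0 lower, against 13.2% and 2.33% of 11322 genes, with a median log2 ratio of 2.31 against 0.05 over all genes. The ratios ran from 1.60 for Stmn3 and 1.82 for Gap43 to 2.99 for Ina, 3.03 for Uchl1 and 3.34 for Stmn2 (2.36 to 4.31), while Nefh, with 59 and 125 UMIs, had -0.11 (-0.56 to 0.33). Ina was mostly seen as single molecules in the Muller library, with 105 UMIs in 97 of 3969 cells. Nefm, with too few UMIs to be tested, had 14 in 10 cells there and up to 3 in 1 cell. Without thinning, no rod-like cell of the Muller library had more than 2 members, and the highest number in the MullerControl library was 4. The markers of other classes also summed higher in rod-like cells of the Muller library. Bipolar markers, 13 of 13 seen in both libraries, summed to 897 and 248 CPM (log2 ratio 1.85), with 8 to 1611 UMIs per gene in the Muller and 1 to 926 in the MullerControl library. Amacrine markers, 10 of 10 seen, summed to 302 and 165 (0.87), and of these Gad1 had 117 and 6 UMIs, C1ql1 144 and 7, and Meis2 760 and 1359. Müller markers, 13 of 13 seen, summed to 979 and 354 (1.47). No marker of the 3 lists was at 0, and their part in the difference was not tested.

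In Müller-like cells the members went in both directions. Of 5 tested, 3 were at least 1.5-fold higher in the Muller library and 1 lower, against 6.98% and 6.01% of 11024 genes, with a median log2 ratio of 2.75 against -0.04 over all genes. Ina had a log2 ratio of 2.75 (1.02 to 4.48, from 23 and 2 UMIs), Stmn3 2.88 (1.82 to 3.93, from 69 and 7) and Uchl1 2.78 (1.44 to 4.12, from 40 and 4). These are the 3 members that bipolar-like cells also carry at a high level. In the same cells bipolar markers summed to 581 and 98.4 CPM (2.55), 13 and 11 of 13 seen, with Grm6 and Neto1 at 0 in the MullerControl library. Amacrine markers summed to 141 and 34.2 (2.02), 10 and 9 of 10 seen, with Gad2 at 0 there. Their part in the difference was not tested. Gap43 was lower at -0.89 (-1.62 to -0.17) and Thy1 at -0.54 (-1.00 to -0.08). Nefl, with 6 and 1 UMIs, Nefm, with 3 and 0, Nefh, with 2 and 3, Sncg, with 4 and 0, and Stmn2, with 15 and 3, had fewer than 20 UMIs and were not compared.

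In bipolar-like cells the members at a high level had log2 ratios of at most 0.18. Of the rarer ones tested, 4 had larger ratios and Nefh did not. Of 8 tested, 4 were at least 1.5-fold higher in the Muller library and 0 lower, against 4.27% and 6.94% of 12392 genes. The 4 were Nefl at 2.24 (0.17 to 4.32, from 24 and 1 UMIs), Gap43 at 1.74 (0.40 to 3.07), Stmn2 at 1.67 (0.33 to 3.01) and Thy1 at 1.54 (0.54 to 2.54), none above 7.35 CPM. Nefh, at 8.00 and 8.56 CPM from 74 and 30 UMIs, had -0.13 (-0.73 to 0.48). Ina had 0.14 (-0.003 to 0.28), Stmn3 0.05 (-0.04 to 0.14) and Uchl1 0.18 (-0.05 to 0.41). Beside these, Müller markers summed to 692 and 385 CPM (log2 ratio 0.84, 13 and 12 of 13 seen, Kcnj10 at 0 in the MullerControl library). Amacrine markers summed to 267 and 248 CPM (0.10) in the same cells, of which Meis2 gave 1881 of 2471 and 850 of 871 UMIs, and Tfap2a, Gad2 and C1ql2 were at 0 in the MullerControl library against 17, 42 and 44 UMIs in the Muller library. Their part was not tested. Of 4 members tested in cone-like cells, 2 were at least 1.5-fold higher and 0 lower, against 6.53% and 8.59% of 9756 genes. They were Uchl1 at 1.39 (0.18 to 2.60) and Ina at 0.65 (0.01 to 1.30), which was under 1.5-fold with the stricter gate (0.51) and from clusters (0.47), with Nefh at 0.56 (0.08 to 1.04) and Stmn3 at -0.04 (-0.33 to 0.25). In the same cells bipolar markers summed to 738 and 428 CPM (log2 ratio 0.79, 12 and 11 of 13 seen), Müller markers to 944 and 553 (0.77, 13 of 13 seen in both) and amacrine markers to 149 and 119 (0.33, 10 and 8 of 10 seen). Of these Igfn1 was at 0 in the Muller library and Vsx1, Neto1, Tfap2a and Gad1 in the MullerControl library. Lrtm1 (96 and 441 UMIs) and Meis2 (75 and 285) were also lower in the Muller library relative to the UMIs of the class. The part of these markers was not tested.

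Lists of related genes were read in the same way, against the same shares over all genes of each class. In amacrine-like cells, where 7.77% of all genes were higher and 12.2% lower, growth cone membrane proteins were at least 1.5-fold higher in the Muller library for 3 of 5 genes tested and lower for 0, regeneration-associated genes for 4 and 0 of 8, stathmins other than the members for 1 and 0 of 2, and intermediate filaments for 1 and 0 of 1 (Vim). Among the first of these, Marcks had 268 and 125 CPM and Basp1 657 and 421, and of the second Map1b, a microtubule protein of growing axons, had 318 and 136. Stmn1 had 379 and 195. Genes of the axon initial segment had 1 higher and 1 lower of 5, with Ank3, its anchor, at 481 and 728. Axonal transport (7 tested), synucleins (2), ubiquitin genes (4) and neurofilament kinases (3) had 0 in either direction, axon adhesion had 1 higher of 5 and collapsin response mediators 1 higher of 5. In rod-like cells (13.2% and 2.33% of all genes) 4 of 7 axonal transport genes, 3 of 4 initial segment genes, 3 of 5 growth cone genes, 3 of 4 collapsin response mediators, 2 of 3 adhesion genes, 2 of 2 stathmins, 1 of 9 regeneration-associated genes, 1 of 3 kinases and 1 of 1 intermediate filaments were higher, and 0 of any list were lower. Basp1 there had 42.4 and 5.00 CPM. Ubiquitin genes had 0 of 4, with Ubb at 4714 and 4554, and synucleins 0 of 1. In Müller-like cells (6.98% and 6.01%) 2 of 6 transport genes and 1 of 3 initial segment genes were higher, 1 of 4 growth cone genes and 1 of 4 collapsin response mediators were lower, and 1 of 7 regeneration-associated genes and 1 of 2 synucleins went each way. In bipolar-like cells (4.27% and 6.94%) 1 of 1 intermediate filaments, 1 of 2 stathmins, 1 of 8 regeneration-associated genes, 1 of 7 transport genes and 1 of 5 initial segment genes were higher, and 0 of any list were lower. In cone-like cells (6.53% and 8.59%) 3 of 5 growth cone genes, 2 of 5 transport genes, 1 of 1 filaments, 1 of 1 stathmins, 1 of 5 collapsin response mediators, 1 of 3 adhesion genes and 1 of 3 kinases were higher, and 0 of any list were lower.

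Some genes outside the 10 had patterns like theirs. In amacrine-like cells thinned to 1000 UMIs, Igf1, a growth factor, was seen in 23.8% of the 42 cells with Nefl and in 4.50% of the 689 without in the Muller library, and in 50% of 22 and 16.2% of 179 in the MullerControl library. Of 821 genes compared, it was among the 8 with the largest ratio in both libraries, with Sdhaf1, Spag7, Sod1, Herpud1, Ncam2, Tm2d3 and Rbfox3, each seen in 4 to 12 of the cells with Nefl in a library. Over the 6 classes with at least 50 cells in each library, which make 12 points that share libraries and depth, the log2 level of Ina ran most like that of Crmp1 (Pearson r 0.99), Nefl like Gria3 (0.97) and Calb1 (0.97), Nefm like Pou3f3 (0.99), Nefh like Dixdc1 (0.97), Thy1 like Pax6 (0.98), Stmn2 like C1ql2 (0.97), Stmn3 like Cplx3 (0.99) and Uchl1 like Sept3 (0.97). These are the leaders among 11452 genes. C1ql2 is on the amacrine marker list and Calb1 on the horizontal one, so the gates partly set their levels, and Sncg, with too few UMIs, was not compared.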

How the data were processed

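Sorted retinal cells were profiled by droplet sequencing in 2 libraries. The deposited matrices hold raw counts, that is UMIs per gene and barcode, and per the file headers the authors made them with Cell Ranger 4.0.0. Seurat 4.0.5 and the builds mm10 and GRCh38 stand in the submitters' processing notes without a role, the labels' protocols name both a v3.1 kit and a v2 protocol, and no deposited barcode had under 500 UMIs. Barcodes under 300 genes or over 20% mitochondrial UMIs were dropped. Scrublet (scanpy 1.11.5) scored doublets, but its automatic threshold marked 2 and 0 cells and had not worked, so the 1130 and 866 highest-scored cells were removed (0.8% per 1000 barcodes).

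A cell took a class when the markers of 1 list passed both a share of its UMIs and a number of distinct markers: per 10000 UMIs 300 for rod, 150 cone, 30 bipolar, 10 amacrine, 10 horizontal, 80 Müller and 100 microglia, with 3 markers, or 2 for amacrine (and at least 3 UMIs) and 4 for horizontal, which took precedence over amacrine. These limits were set after the data were seen, and of ungated cells 380 and 92 lay within 20% of the amacrine share or above it without passing the gate. The genes and lists described, and the markers, were chosen with earlier results of these data known. UMIs were summed per class and library (pandas 2.3.3, scipy 1.17.1 and numpy 2.4.6 under Python 3.11.15). Levels have exact Poisson and shares exact Clopper-Pearson 95% intervals, which cover counting error only, and levels carry no length correction. Ratios have 1 count added to each sum and were computed over all genes with at least 20 UMIs in the class, and 3 counts set the limit of a count of 0. The ratios were tested on simulated Poisson counts for amacrine-like cells. This simulation shares the assumption of the intervals and leaves out the uneven spread of UMIs over cells. It therefore cannot check the intervals for spread between cells or libraries. Genes named were the 10 members, the 3 genes of each list with the most UMIs where given, and the leaders in likeness, which were the 8 genes with the largest ratio among genes in at least 15% of the cells with Nefl, and for each member those with the highest r among genes with at least 200 UMIs (that of Gap43 is not reported here). The names Meis2, Gad1, C1ql1, Tfap2a, Gad2, C1ql2, Calb1, Lhx1, Onecut1, Isl1, Grm6, Neto1, Igfn1, Car14, Kcnj10, Vsx1, Prkca, Slc1a3, Aqp4, Sox9, Lrtm1, Chrna6, Rbpms2, Isl2 and Nrn1 were given outside this rule after their values were seen. Gene positions are those of GENCODE for GRCm38, and sequences those of RefSeq (GRCm38.p6). The alternatives were a stricter gate (1.5 times the share and 1 more marker), Leiden clusters (leidenalg 0.10.2, igraph 0.11.9), no doublet removal, no mitochondrial limit, another denominator, another depth of thinning and leaving out 1 cell, and the clusters were added for the shares of cells after the data were seen.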

Additional observations from a re-analysis of the deposited data

Results flagged for a closer look

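For 3 members the ratio of the libraries had opposite directions in different classes, each with a counting interval on 1 side of 0. With 1 library per group, the difference between the classes was not tested. The log2 ratio of Ina, Muller over MullerControl, was 2.99 in rod-like, 2.75 in Müller-like and 0.65 in cone-like cells, and -0.26 in amacrine-like cells. That of Gap43 was 1.82 in rod-like and 1.74 in bipolar-like cells, and -0.89 in Müller-like cells. That of Thy1 was 2.21 in rod-like and 1.54 in bipolar-like cells, and -0.51 in amacrine-like and -0.54 in Müller-like cells. Within amacrine-like cells with a Gad gene and no Slc6a9 it was 0.92 (-0.25 to 2.10, from 148 and 5 UMIs). In rod-like and bipolar-like cells Gap43 and Thy1 lay at 10.1 CPM or less, so these ratios rest on few molecules, and in rod-like cells markers of bipolar, amacrine and Müller cells were higher in the Muller library as well.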

How the results depend on the processing

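All 34 log2 ratios between libraries stayed within their counting interval under each of the 6 alternatives (stricter gate, clusters, no doublet removal, no mitochondrial limit, a denominator without mitochondrial genes and Malat1, and without the cell with the most UMIs of the gene). The range exceeded 1.5-fold for Nefl (1.81 to 3.06) and Gap43 (1.36 to 1.99) in bipolar-like cells, Uchl1 in Müller-like cells (2.14 to 2.99) and Stmn2 in rod-like cells (2.95 to 3.60). The ratio of Ina in amacrine-like cells ran from -0.37 to -0.16 and that of Thy1 from -0.72 to -0.27. The share of amacrine-like cells was 5.61% and 1.49% with the stricter gate, and 10.2% and 2.69% from clusters, against 7.07% and 2.14%. Nefl in amacrine-like cells of the Muller library lay at 94.3 CPM with the stricter gate and at 126 with the other denominator, against 107. Nefl was seen in 2.37% and 6.86% of amacrine-like cells thinned to 500 UMIs and in 15.5% and 22.1% without thinning, against 5.75% and 10.9%. At least 3 members were seen in 28.8% and 38.2% without thinning, against 5.75% and 4.98%. These shares follow the depth by construction. No cluster was horizontal-like, so the clusters give no value for that class, which holds 15 and 2 cells. No paired analysis was possible because each group has 1 library.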
